A study of Mus musculus with 8 samples.

Results

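In liver ECs from WT mice and from LRP1 eKO mice, 9 genes of cholesterol efflux and of the liver X receptors (LXRs) were examined, out of 22520 protein-coding genes in the deposited mRNA-seq table. The genes were taken by symbol and comprise the receptors Nr1h3 and Nr1h2, the transporters Abca1 and Abcg1, the lipoprotein proteins Pltp and Scarb1, the lipogenic genes Srebf1 and Lpcat3, and Mylip. All 9 were found in the table. WT mice were LRP1 f/f; Cdh5-CreER-/- littermates of the LRP1 eKO mice, which were LRP1 f/f; Cdh5-CreER+/-, and 4 libraries of each genotype were measured. Both groups therefore carried the floxed Lrp1 gene, while the inducible Cre recombinase CreER, driven by the endothelial Cdh5 promoter, was present in LRP1 eKO mice alone, so that Lrp1 loss and the presence of CreER cannot be told apart. The labels give C57BL/6 mice at postnatal day 14 and call the cells liver microvesicular cells, which were collected with beads against the endothelial surface protein PECAM-1. The inducing agent and its dose are not given in the sources used here. The labels do not say whether each library came from 1 mouse or from pooled mice, so that p-values measure the spread between these libraries, which may be technical.

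LXRs are nuclear receptors that bind DNA together with retinoid X receptors (RXRs) and are activated by oxysterols, the oxidized derivatives of cholesterol. With ligand bound they induce genes that move cholesterol out of the cell, remodel lipoproteins, make fatty acids and lower sterol uptake, and without ligand they hold corepressors at part of these genes. Low sterol activates a second system, in which SREBP-2 induces cholesterol synthesis and sterol uptake. LRP1 is an endocytic lipoprotein receptor that takes up remnant lipoproteins and other ligands.

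Signals are the authors' quantile-normalized values, whose unit before normalization is not stated, so that levels were compared between libraries and not between genes. Differences are given as log2 fold changes of signal + 1, LRP1 eKO minus WT, a scale on which the change of a low signal is understated. A gene was called higher or lower when its adjusted p from limma, a linear model fitted across all genes, was under 0.05 over the 11391 genes tested, those in which 4 or more of the 8 libraries had a signal of 1 or more. Of the 9 genes, 8 passed this filter, and Abcg1, which did not, was taken from the same fit without the filter. Library totals were 484445 to 485947 and are fixed by the normalization, so that depth is unknown. Lrp1 itself (chromosome 10, 127538161 to 127621148 on GRCm38) gave 65.5 ± 13.3 in WT libraries and 4.41 ± 1.65 in LRP1 eKO libraries (n = 4 each, SD). As to the labelled cell type, the endothelial genes Pecam1 and Cdh5 had WT means of 2.09 and 1.86, and the summed signal of 10 pan-endothelial markers was 38.1 to 43.9 in WT libraries and 52.3 to 70.7 in LRP1 eKO libraries. The summed signal of 10 stellate cell and fibroblast markers was 2467 to 2953 over all libraries. LRP1 eKO library 2 stood apart from the other 3 of its group in the 14 macrophage markers, whose summed signal was 172 to 269 in WT libraries, 64.3 in LRP1 eKO library 2, and 741, 681 and 405 in LRP1 eKO libraries 1, 3 and 4.

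LXR and RXR together bind a direct repeat of AGGTCA with 4 free bases between the copies, written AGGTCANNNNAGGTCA. This repeat was searched on both strands, with up to 3 mismatches among its 12 fixed letters, in RefSeq promoter windows (GRCm38.p6) that run from 250 bases before to 50 bases after an annotated start. Windows were matched for 7 of the 9 genes, 10 windows in all. A match was present in 2 of them, Abca1 and 1 of the 3 Srebf1 windows, while 21.9% of all 32851 windows held a match, and so did 3 of the 17 windows of other LXR target genes. The windows of Abca1 (chr4:53159846-53160145, minus strand), of Srebf1 (chr11:60210422-60210721, minus strand) and of Pltp (chr2:164857659-164857958, minus strand) are shown 5′ to 3′ along the gene, because Abca1 and Pltp were the 2 genes called higher and Srebf1 is the other gene with a match. Capitals mark the match, and the Pltp window has none.
Abca1: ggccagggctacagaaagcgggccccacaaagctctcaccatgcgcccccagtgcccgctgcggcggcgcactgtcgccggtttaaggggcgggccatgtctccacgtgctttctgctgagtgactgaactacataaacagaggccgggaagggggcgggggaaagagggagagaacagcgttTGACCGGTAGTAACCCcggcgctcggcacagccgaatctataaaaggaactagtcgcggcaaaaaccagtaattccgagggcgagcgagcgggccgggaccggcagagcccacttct
Srebf1: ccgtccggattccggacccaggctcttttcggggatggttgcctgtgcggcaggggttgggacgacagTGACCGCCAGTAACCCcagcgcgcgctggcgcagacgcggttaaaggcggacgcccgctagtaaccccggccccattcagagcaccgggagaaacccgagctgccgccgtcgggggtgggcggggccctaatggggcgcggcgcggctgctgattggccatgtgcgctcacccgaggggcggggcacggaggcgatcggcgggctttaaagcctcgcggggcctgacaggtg
Pltp: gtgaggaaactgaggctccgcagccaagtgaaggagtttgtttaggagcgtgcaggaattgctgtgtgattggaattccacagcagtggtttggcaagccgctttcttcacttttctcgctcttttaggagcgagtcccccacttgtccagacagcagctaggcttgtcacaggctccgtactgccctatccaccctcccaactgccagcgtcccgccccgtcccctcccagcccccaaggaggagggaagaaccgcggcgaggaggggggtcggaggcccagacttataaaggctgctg
On the opposite strand, the Abca1 match reads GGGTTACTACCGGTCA and lies 67 to 52 bases before the start, and the Srebf1 match reads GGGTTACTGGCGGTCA and lies 182 to 167 bases before the start. Both runs have the same 12 letters at the compared positions and differ within the spacer. A match in these letters is a description of the sequence and not of binding.

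The receptor genes themselves did not pass the test. Nr1h2 (chromosome 7, 44549616 to 44553951), which encodes the broadly expressed LXRβ, had signals of 30.1, 28.3, 27.0 and 31.9 in WT libraries 1 to 4 and of 29.5, 30.2, 29.8 and 27.8 in LRP1 eKO libraries 1 to 4. The 2 groups lay in the same range, with means of 29.3 ± 2.11 and 29.3 ± 1.06 (SD, n = 4 each). The log2 fold change of Nr1h2 was 0.0019 with a 95% interval of -0.13 to 0.13 (limma adjusted p = 0.98). Nr1h3 (chromosome 2, 91184061 to 91202834) encodes LXRα, the form known from liver and macrophages. Its signals were 2.32, 1.50, 1.72 and 1.82 in WT libraries and 1.83, 1.52, 1.49 and 1.41 in LRP1 eKO libraries, low in both groups. The groups overlapped, and the log2 fold change was -0.14 with an interval of -0.35 to 0.066 (limma adjusted p = 0.24). Nr1h3 shares 34 exonic bases with the transcript Gm13783 on its own strand.

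Among 13 RXR and coregulator genes, 12 passed the filter, of which 4 were called higher and 2 lower, beside 19.0% and 22.2% of all genes tested, and 6 were not called. Neither RXR gene that passed was called. Rxra had means of 14.1 ± 0.867 in WT libraries and 14.8 ± 0.959 in LRP1 eKO libraries, and Rxrb of 13.5 ± 1.12 and 12.6 ± 0.806 (SD, n = 4 each, limma adjusted p = 0.44 and 0.32). The corepressor gene Ncor1 went from 34.6 ± 5.43 to 37.4 ± 3.74 and was not called (limma adjusted p = 0.41). The steroid receptor coactivators Ncoa1, Ncoa2 and Ncoa3 rose by 0.23, 0.45 and 0.32 on the log2 scale. Hdac3, the deacetylase of the corepressor complex, fell from 30.7 ± 1.84 to 26.2 ± 0.574 (SD, n = 4 each), and the difference was -0.22 on the log2 scale (limma adjusted p = 0.0071). The complex member Tbl1xr1 fell with a log2 fold change of -0.23, a call that was lost without WT replicate 2 or without LRP1 eKO replicate 1 (highest limma adjusted p = 0.056). Its paralogue Tbl1x had means of 43.0 ± 4.99 and 41.5 ± 1.89 (SD, n = 4 each), with a limma adjusted p of 0.69 and of 0.035 without WT replicate 4, where its log2 fold change was -0.13. The median log2 fold change of the 12 genes was 0.049, beside -0.0095 over all genes tested.

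**Figure D1:**
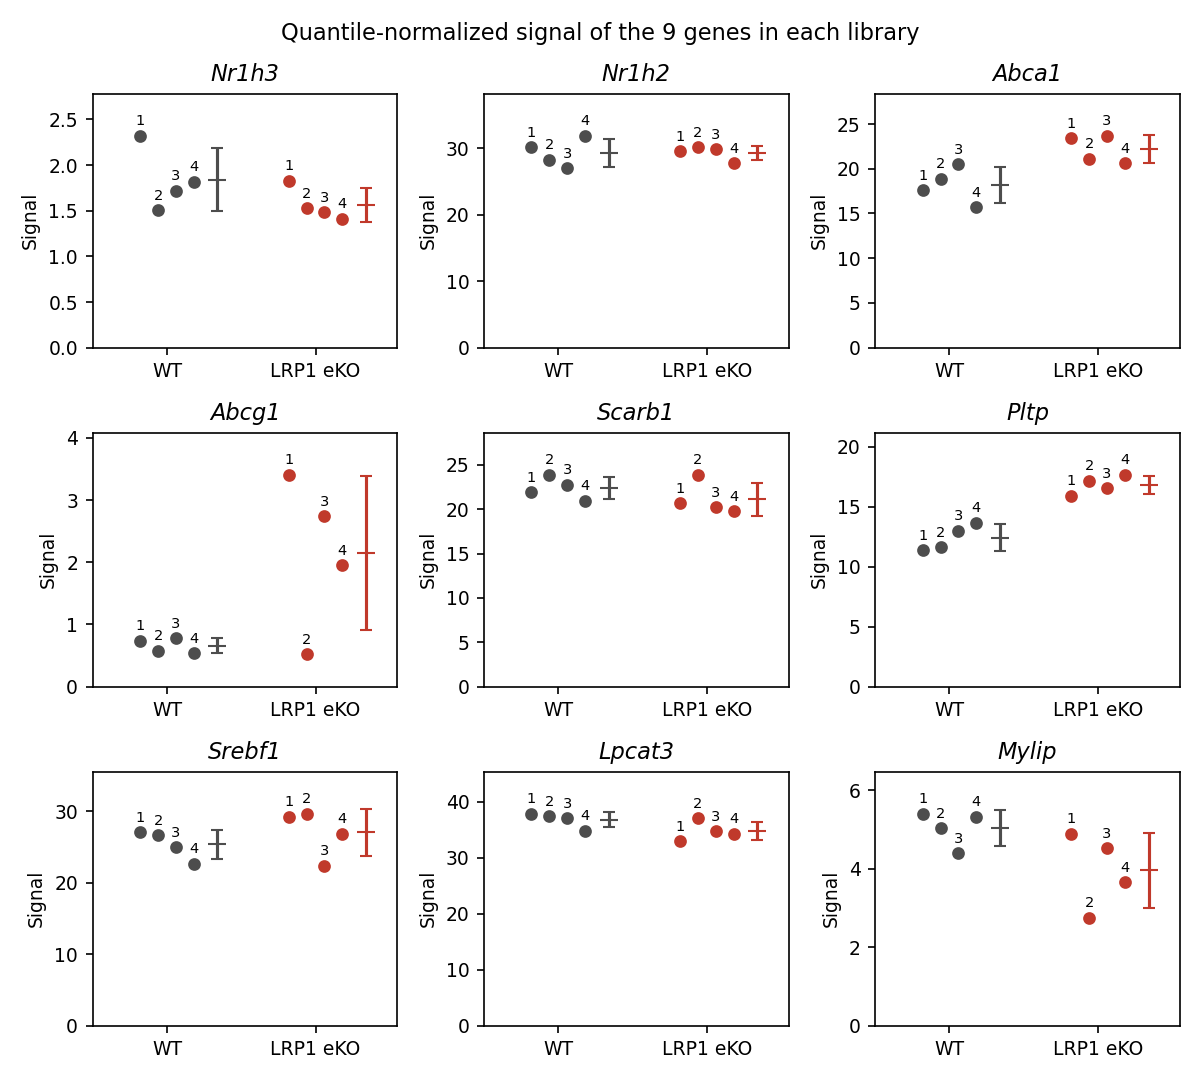
Quantile-normalized signal (y axis, from 0) of the 9 genes in the 4 WT (grey) and 4 LRP1 eKO (red) libraries, with replicate numbers above the points and the mean ± SD beside them. The groups do not overlap for Abca1 and Pltp, and the Abcg1 signal of LRP1 eKO library 2 lies at 0.520 beside 1.95 to 3.40 in the other 3.

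Of the transporters, Abca1 rose modestly in every LRP1 eKO library, and Abcg1 was high in 3 of 4. ABCA1 passes cholesterol and phospholipid to lipid-poor apolipoprotein A-I, the first step of HDL formation. Abca1 (chromosome 4, 53030787 to 53159895) had signals of 17.6, 18.9, 20.5 and 15.7 in WT libraries 1 to 4 and of 23.4, 21.1, 23.7 and 20.6 in LRP1 eKO libraries 1 to 4. Each LRP1 eKO value was above each WT value, although the gap between the highest WT value of 20.5 and the lowest LRP1 eKO value of 20.6 was narrow. The mean went from 18.2 ± 2.02 to 22.2 ± 1.56 (SD, n = 4 each), which is 22.3% more. The log2 fold change was 0.28 (standard error 0.081, 95% interval 0.099 to 0.46, limma adjusted p = 0.020, exact two-sided permutation p = 0.029, the smallest that 4 libraries against 4 allow). Of all genes tested, 1586 had a larger log2 fold change. The call was lost without LRP1 eKO replicate 1 or replicate 3 (limma adjusted p = 0.056 and 0.058), where the log2 fold change was 0.25 in either case. LRP1 eKO library 2, in which the summed macrophage markers were lower than in all 4 WT libraries, had an Abca1 signal of 21.1 and was above all 4 WT libraries. The pan-endothelial markers were higher in all 4 LRP1 eKO libraries, and the part of endothelial or macrophage RNA in the Abca1 difference was not tested. In such bulk samples, fewer cells of a type and less RNA per cell cannot be told apart.

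ABCG1 moves cholesterol onto HDL particles that are already formed, and it is abundant in macrophages as well as present in ECs. Abcg1 (chromosome 17, 31057675 to 31117988) had signals of 0.742, 0.576, 0.776 and 0.535 in WT libraries 1 to 4 and of 3.40, 0.520, 2.74 and 1.95 in LRP1 eKO libraries 1 to 4. LRP1 eKO libraries 1, 3 and 4 lay above all WT libraries, while LRP1 eKO library 2 lay below all of them. The means were 0.657 ± 0.120 and 2.15 ± 1.24 (SD, n = 4 each), and the difference did not pass the test (log2 fold change 0.83, standard error 0.30, 95% interval 0.14 to 1.51, limma adjusted p = 0.077, exact permutation p = 0.14). Without LRP1 eKO replicate 2, the log2 fold change was 1.14 (limma adjusted p = 0.0015). The order of the LRP1 eKO libraries for Abcg1, from high to low, was 1, 3, 4 and 2, which was also the order of the summed macrophage markers. This order was not particular to macrophage markers. The summed pan-endothelial markers had it (70.7, 67.7, 58.6 and 52.3), as did the summed sinusoidal endothelial markers (33.0, 29.3, 20.0 and 8.38). The summed hepatocyte markers and Lrp1 itself had it too. Within the macrophage list, 9 of 14 genes passed the filter, 8 of these 9 had the order 1, 3, 4 and 2, and all 9 were lowest in LRP1 eKO library 2. Of the 14 markers, only the Kupffer cell markers Clec4f and Timd4 were listed at 0 in all 4 WT libraries, where the list summed to 172 to 269. No marker was at 0 in all 4 LRP1 eKO libraries. The part of macrophage, endothelial or hepatocyte RNA in the Abcg1 values was not tested.

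Of the 2 genes for proteins that act on lipoproteins, Pltp rose and Scarb1 was not called. Pltp encodes the secreted phospholipid transfer protein, which carries phospholipids between lipoproteins and enlarges HDL. Pltp (chromosome 2, 164839518 to 164857711) had signals of 11.4, 11.6, 13.0 and 13.7 in WT libraries 1 to 4 and of 15.9, 17.2, 16.5 and 17.7 in LRP1 eKO libraries 1 to 4. The groups were clearly apart, with the lowest LRP1 eKO value 15.9 and the highest WT value 13.7. The mean of 12.4 ± 1.10 rose to 16.8 ± 0.755 (SD, n = 4 each), or by 35.5%, which gave a log2 fold change of 0.41 (standard error 0.066, 95% interval 0.27 to 0.56, limma adjusted p = 0.0010, exact permutation p = 0.029). Leaving out each library in turn gave log2 fold changes of 0.37 to 0.46, with limma adjusted p of at most 0.0049. Among all genes tested, 797 had a larger log2 fold change. LRP1 eKO library 2, with the lowest macrophage markers, had the second highest Pltp signal. The part of macrophage RNA in the Pltp values was not tested.

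Pltp shares 495 exonic bases, 19.3% of its exonic bases, with Ctsa on the opposite strand, which encodes the lysosomal protease cathepsin A. The Ctsa signal was 203 ± 5.99 in WT libraries and 251 ± 8.72 in LRP1 eKO libraries (n = 4 each, SD), higher by 0.30 on the log2 scale (limma adjusted p = 0.00046). The sources do not say whether reads were counted by strand, and without strand the reads of the shared bases cannot be told apart. The Ctsa signal was highest in LRP1 eKO library 2 with 258, and the Pltp signal in LRP1 eKO library 4 with 17.7.

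Scarb1 encodes SR-B1, the HDL receptor that exchanges cholesterol with HDL and is found on liver cells and ECs. Its signals (chromosome 5, 125277087 to 125341094) were 21.9, 23.9, 22.7 and 20.9 in WT libraries 1 to 4 and 20.7, 23.9, 20.2 and 19.8 in LRP1 eKO libraries 1 to 4. The groups overlapped through LRP1 eKO library 2, whose value equalled the highest WT value. Quantile normalization gives genes of equal rank the same value, so that this is an equality of rank. The log2 fold change was -0.080 with a 95% interval of -0.23 to 0.068 (limma adjusted p = 0.35). With library weights, which let each library count by its estimated quality, and without WT replicate 4 and LRP1 eKO replicate 2 together, Scarb1 was called lower, with log2 fold changes of -0.15 and -0.17 (limma adjusted p = 0.028 and 0.015).

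The lipogenic genes of the set were not called. Srebf1 (chromosome 11, 60199089 to 60222581) encodes SREBP-1, whose 1c form is induced by LXR and drives fatty acid synthesis. The table has 1 value per gene, so that the 1a and 1c transcripts were not separated. Srebf1 signals were 27.1, 26.7, 24.9 and 22.7 in WT libraries 1 to 4 and 29.2, 29.6, 22.4 and 26.9 in LRP1 eKO libraries 1 to 4. LRP1 eKO library 3 had the lowest value of all 8, and the other 3 ranged from 26.9 to 29.6, across the top of the WT range. The log2 fold change was 0.085 with a 95% interval of -0.12 to 0.29 (limma adjusted p = 0.48), and it was -0.011 with library weights. Srebf1 shares 109 exonic bases with Rai1 on the opposite strand.

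Lpcat3, at chromosome 6, 124663027 to 124704418, encodes the enzyme that places polyunsaturated chains in membrane phospholipids. Its signals were 37.9, 37.4, 37.1 and 34.9 in WT libraries 1 to 4 and 33.0, 37.1, 34.8 and 34.4 in LRP1 eKO libraries 1 to 4. In 3 of 4 LRP1 eKO libraries the value was below all WT values, and in LRP1 eKO library 2 it equalled that of WT library 3, again by equal rank after normalization. The log2 fold change was -0.079 with a 95% interval of -0.19 to 0.030 (limma adjusted p = 0.22, exact permutation p = 0.086). Lpcat3 was called lower with library weights (-0.12, limma adjusted p = 0.019) and without WT replicate 4 and LRP1 eKO replicate 2 (-0.13, limma adjusted p = 0.017). It shares 334 exonic bases, 10.2% of its exonic bases, with Emg1 on the opposite strand, a ribosome assembly gene that fell from 37.0 ± 2.82 to 30.1 ± 0.611 (SD, n = 4 each, limma adjusted p = 0.0031).

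Mylip encodes IDOL, a ubiquitin ligase that sends lipoprotein receptors such as VLDLR and LRP8 to degradation. Mylip signals (chromosome 13, 45389742 to 45412022) were 5.40, 5.04, 4.40 and 5.33 in WT libraries 1 to 4 and 4.90, 2.76, 4.52 and 3.66 in LRP1 eKO libraries 1 to 4. The lowest values were those of LRP1 eKO libraries 2 and 4, and LRP1 eKO libraries 1 and 3 lay within the WT range. The means were 5.04 ± 0.459 and 3.96 ± 0.954 (SD, n = 4 each), and the log2 fold change of -0.30 (standard error 0.13, 95% interval -0.60 to -0.010) was not called (limma adjusted p = 0.089, exact permutation p = 0.086). Without LRP1 eKO replicate 1, Mylip was called lower, at -0.39 on the log2 scale (limma adjusted p = 0.040), while without LRP1 eKO replicate 2 the value was -0.18.

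Counted together, 2 of the 8 genes tested were called higher, Pltp and Abca1, which is 25.0%, beside 19.0% of all genes tested. None of the 8 was called lower by limma, beside 22.2% of all genes tested, and 1 of the 8, Mylip, was lower at an unadjusted p under 0.05. The share called higher was thus close to the background of a comparison in which many genes were called. At the 2-fold threshold of the study's methods, 0 of the 8 were called higher, where 0.869% of all genes tested were. The groups did not overlap for the same 2 genes, both higher in LRP1 eKO libraries, beside 20.0% of all genes tested that were higher without overlap and 22.5% that were lower without overlap. The median log2 fold change of the 8 genes was -0.038, beside -0.0095 over all genes tested. The order of the fold changes was Pltp, Abca1, Srebf1, Nr1h2, Lpcat3, Scarb1, Nr1h3 and Mylip, with the intervals of the last 6 overlapping each other.

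**Figure D2:**
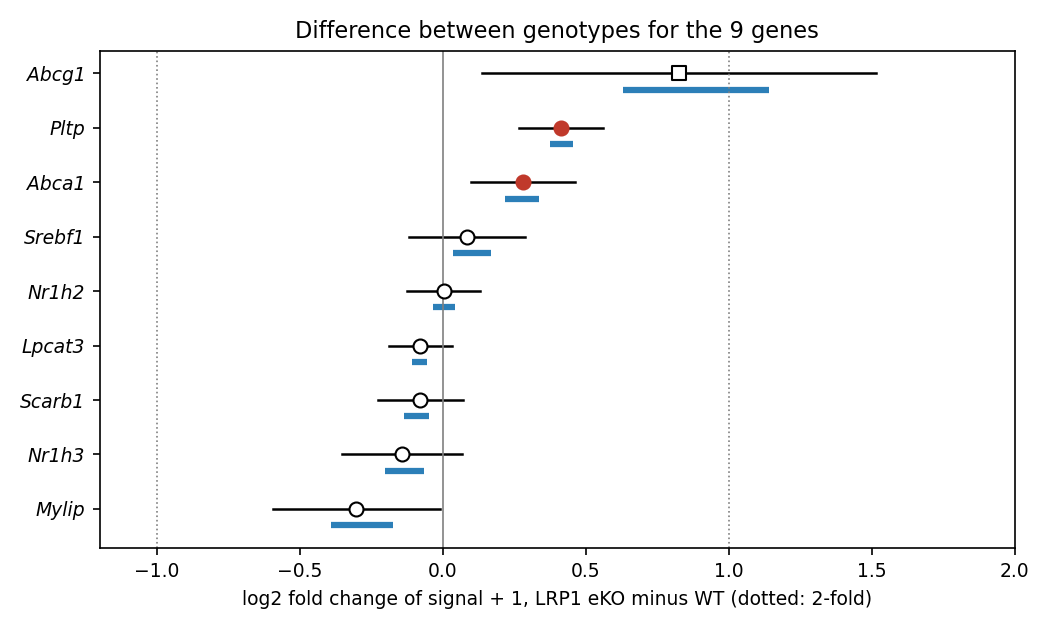
Log2 fold change of signal + 1 (x axis, LRP1 eKO minus WT) of the 9 genes with the 95% interval as a black line and, as a blue bar, the range when each library was left out in turn. Red points are the genes called higher (Pltp 0.41, Abca1 0.28), the square is Abcg1 from the fit without the filter, dotted lines mark a 2-fold change, and the blue bar of Abcg1 runs from 0.63 to 1.14.

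Of 20 other genes described as LXR targets, 15 passed the filter, of which 2 were called higher and 2 lower, beside 19.0% and 22.2% of all genes tested, and 11 were not called. Smpdl3a, a phosphodiesterase gene induced by LXR in macrophages, rose from 16.2 ± 0.761 to 25.7 ± 6.47, and the transglutaminase gene Tgm2 rose from 73.0 ± 4.23 to 99.1 ± 13.9 (SD, n = 4 each, limma adjusted p = 0.012 and 0.0055). Lpl, the lipoprotein lipase that hydrolyses triglyceride on the capillary wall, fell from 92.6 ± 5.63 to 52.7 ± 9.84, and its cofactor gene Apoc2 fell from 13.4 ± 2.42 to 5.06 ± 2.45 (SD, n = 4 each, limma adjusted p = 0.00053 and 0.0048). In the same libraries the summed signal of the 12 hepatocyte markers was 78.3 to 120 in WT and 27.8 to 35.8 in LRP1 eKO, and that of the 7 skeletal muscle markers in the table was 32.9 to 56.7 and 6.00 to 7.49. All 4 tested genes of either list were called lower. Of these, the muscle gene Atp2a1 passed the filter only through its WT libraries, where it was high, and its call is given with that limit. The part of hepatocyte and muscle RNA in the Lpl and Apoc2 values was not tested. The direction of these 4 LXR targets was thus divided, and the median log2 fold change of the 15 genes was 0.15, beside -0.0095 over all genes tested. The lipogenic targets Scd2 and Fasn were not called (log2 fold changes 0.25 and 0.15, limma adjusted p = 0.23 and 0.48), as was the case for Srebf1.

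Apoe, which encodes the apolipoprotein of remnants that is also a ligand of LRP1, showed how much these targets differed between LRP1 eKO libraries. Its signals were 313, 323, 330 and 266 in WT libraries 1 to 4 and 903, 113, 824 and 490 in LRP1 eKO libraries 1 to 4. LRP1 eKO library 2 lay below all WT libraries and the other 3 above all of them, as for Abcg1. Cd5l, a secreted macrophage protein gene, had 2.80, 3.17, 4.08 and 2.05 in WT libraries and 20.8, 0.274, 18.0 and 9.99 in LRP1 eKO libraries. Neither gene was called (limma adjusted p = 0.44 and 0.25), and without LRP1 eKO replicate 2 both were, with log2 fold changes of 1.22 and 2.07 (limma adjusted p = 0.0012 and 0.00025). Among the 15 other LXR target genes tested, 11 were lowest in LRP1 eKO library 2 of its group and 8 had the order 1, 3, 4 and 2, beside 24.4% and 6.85% of all genes tested. Among the 8 tested genes of the LXR and efflux set, 1 was lowest in LRP1 eKO library 2, Mylip, and 4 were highest there, Nr1h2, Scarb1, Srebf1 and Lpcat3, beside 36.6% of all genes tested. As with Abcg1, the part of macrophage, endothelial or hepatocyte RNA in these values was not tested.

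**Figure D3:**
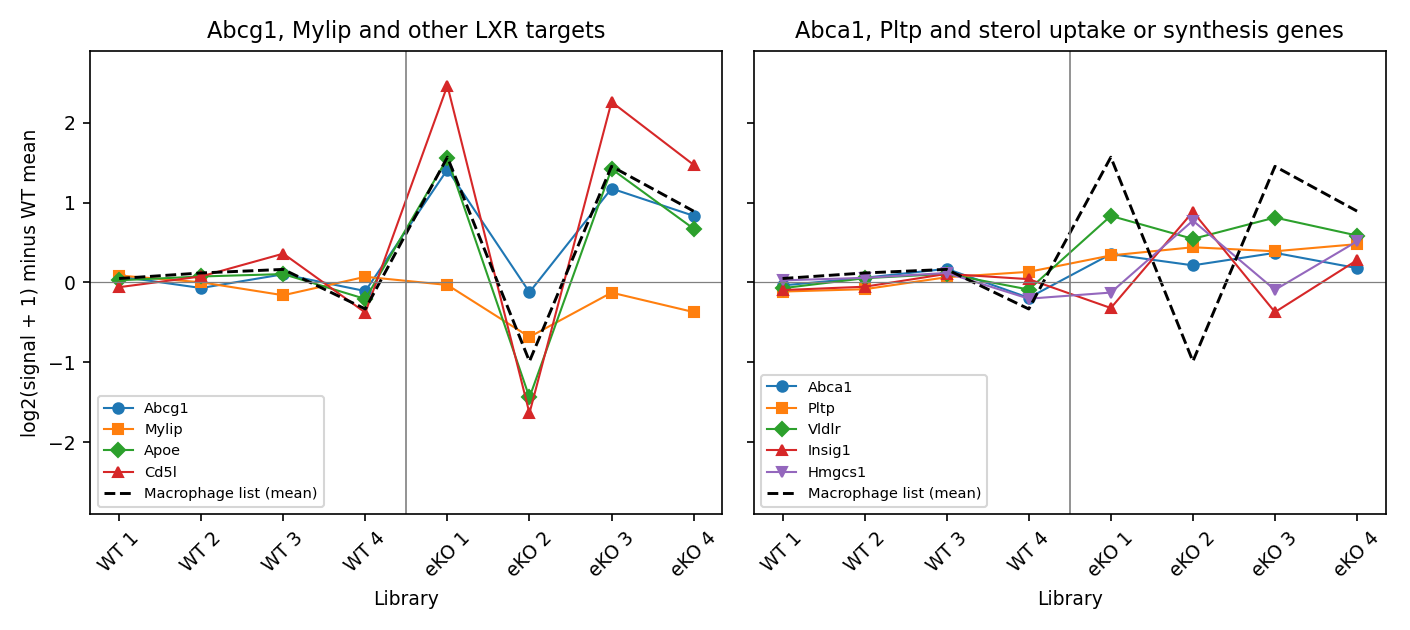
Log2(signal + 1) minus the WT mean (y axis) in each of the 8 libraries for Abcg1, Mylip, Apoe and Cd5l (left) and for Abca1, Pltp, Vldlr, Insig1 and Hmgcs1 (right), with the mean of the 14 macrophage markers as a dashed line in both panels. Abcg1, Apoe and Cd5l drop in LRP1 eKO library 2 with the dashed line, while Abca1 and Pltp stay above 0 in all 4 LRP1 eKO libraries. The part of macrophage, endothelial or hepatocyte RNA in any of these genes was not tested.

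The uptake receptor genes Vldlr and Lrp8, whose proteins are substrates of MYLIP, rose. In a list of 13 genes of the SREBP pathway and sterol uptake, 12 passed the filter. Of these, 3 were called higher and 9 were not called, beside 19.0% of all genes tested called higher and 22.2% called lower. Vldlr signals were 8.62, 9.49, 9.90 and 8.51 in WT libraries 1 to 4 and 17.0, 13.8, 16.8 and 14.2 in LRP1 eKO libraries 1 to 4. All LRP1 eKO values were above all WT values, and the lowest of them was that of LRP1 eKO library 2, in which Mylip was also lowest. The Vldlr mean rose from 9.13 ± 0.675 to 15.4 ± 1.70 (SD, n = 4 each), by 0.69 on the log2 scale (limma adjusted p = 0.00016). Lrp8 was low, with 0.765, 1.13, 1.24 and 0.659 in WT libraries and 1.15, 1.98, 1.38 and 1.88 in LRP1 eKO libraries. Its groups overlapped, and it rose by 0.41 on the log2 scale (limma adjusted p = 0.031), a call lost when any of 4 libraries was left out, WT replicates 1 and 4 and LRP1 eKO replicates 2 and 4 (highest limma adjusted p = 0.085). MYLIP acts on the receptor proteins, which were not measured, and mRNA was measured here.

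The synthesis genes of the same list were not called. Srebf2, which encodes SREBP-2, went from 37.2 ± 3.23 to 33.8 ± 3.10 (SD, n = 4 each, limma adjusted p = 0.20), and was called lower without WT replicate 4 (log2 fold change -0.19, limma adjusted p = 0.038). It was also called lower with library weights (-0.23, limma adjusted p = 0.0028) and without WT replicate 4 and LRP1 eKO replicate 2 together (-0.26, limma adjusted p = 0.00062). Hmgcs1, an early enzyme of cholesterol synthesis, had 38.0, 38.9, 40.6 and 32.3 in WT libraries and 34.1, 64.5, 34.9 and 53.8 in LRP1 eKO libraries. LRP1 eKO libraries 2 and 4 were above all WT libraries and libraries 1 and 3 within their range (limma adjusted p = 0.27). Of the 12 genes tested, 8 were highest in LRP1 eKO library 2 of its group, beside 36.6% of all genes tested, and the median log2 fold change was 0.16.

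Several genes that free and carry cholesterol inside the cell rose, and 2 HDL apolipoprotein genes fell. Of 20 genes for cholesterol export, esterification and HDL, 12 passed the filter, of which 5 were called higher, 2 were called lower and 5 were not called. Over all genes tested, 19.0% were called higher and 22.2% lower. The lysosomal cholesterol exporter gene Npc1 rose from 12.0 ± 0.587 to 19.1 ± 1.93 and its partner Npc2 from 236 ± 7.12 to 267 ± 1.25 (SD, n = 4 each, limma adjusted p = 0.00017 and 0.0051). The Npc2 value was identical in LRP1 eKO libraries 2, 3 and 4, because quantile normalization gives equal ranks equal values, so that its SD there does not measure precision. Lipa, the lysosomal acid lipase, rose by 0.43, the cholesteryl ester hydrolase gene Nceh1 by 0.33, and the caveolar coat gene Cav1 by 0.75 on the log2 scale. Npc1 and Lipa had the LRP1 eKO order 1, 3, 4 and 2 of the summed macrophage and endothelial markers. The part of macrophage or endothelial RNA in their values was not tested. The Nceh1 call was lost without any 1 library other than LRP1 eKO replicate 2 (highest limma adjusted p = 0.12). Soat1, which esterifies cholesterol, had means of 42.7 ± 4.71 and 41.2 ± 4.09 (SD, n = 4 each) and was not called (limma adjusted p = 0.69). Apoa1, the acceptor of ABCA1 cholesterol, fell from 18.6 ± 2.04 to 7.90 ± 1.34, and Apoa2 fell from 2.32 ± 0.452 to 1.03 ± 0.281 (SD, n = 4 each, limma adjusted p = 5.1e-05 and 0.0016). The hepatocyte markers, whose sum was at most 35.8 in LRP1 eKO libraries and at least 78.3 in WT libraries, were lower with them, and the part of hepatocyte RNA in these values was not tested. Lcat, which esterifies cholesterol on HDL, had means of 1.95 ± 0.388 and 1.61 ± 0.140 (SD, n = 4 each, limma adjusted p = 0.17). The median log2 fold change of the 12 genes was 0.056.

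Genes of 3 enzymes that convert oxysterols, the ligands of LXR, fell. Of 9 such genes, 8 passed the filter, 3 of which were called lower, beside 22.2% of all genes tested, and 5 of which were not called. Cyp7b1 passed the filter only through its WT libraries, where it was high, and its call is given with that limit. With any 1 WT library left out, Cyp7b1 was below the filter, and 2 of the genes were called lower. Cyp7b1, an oxysterol hydroxylase of bile acid synthesis, fell from 2.01 ± 0.265 to 0.604 ± 0.0899, and Cyp39a1, another oxysterol hydroxylase, fell from 6.98 ± 0.353 to 3.69 ± 0.162 (SD, n = 4 each, limma adjusted p = 2.4e-05 and 8.6e-06). Hsd3b7, the enzyme that acts after them, fell from 28.0 ± 1.01 to 21.2 ± 1.29 (SD, n = 4 each, limma adjusted p = 0.00046). The hepatocyte markers, with a median log2 fold change of -1.67 over the 4 tested, were lower in the same libraries, and their part in the values of these 3 enzymes was not tested. Ch25h, which makes an oxysterol ligand of LXR, had means of 4.07 ± 0.838 and 5.17 ± 0.557 (SD, n = 4 each) and was not called (limma adjusted p = 0.068), but was called higher without WT replicate 4 (log2 fold change 0.39, limma adjusted p = 0.016). Ebp, a late enzyme of cholesterol synthesis, was not called (log2 fold change -0.036). The median of the 8 genes was -0.11.

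Lpcat3 belongs to a wider group of enzymes that reattach acyl chains to lysophospholipids. Of 12 other genes of this kind, 11 passed the filter, of which 2 were called higher, 2 were called lower and 7 were not called. The shares over all genes tested were 19.0% higher and 22.2% lower. Agpat4 fell from 21.2 ± 0.618 to 18.1 ± 0.674 and Agpat3 from 61.2 ± 1.18 to 54.6 ± 1.30, while Lpcat2, the form known from inflammatory cells, rose from 13.0 ± 1.44 to 16.1 ± 1.05 (SD, n = 4 each, limma adjusted p = 0.0050, 0.0078 and 0.015). Agpat1 rose by 0.13 on the log2 scale, a call that was lost when WT replicate 3 or LRP1 eKO replicate 1, 2 or 3 was left out (highest limma adjusted p = 0.068). Mboat7 had means of 57.0 ± 3.57 and 54.4 ± 1.16 (SD, n = 4 each) and was not called. The median of the 11 genes was -0.021.

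**Figure D4:**
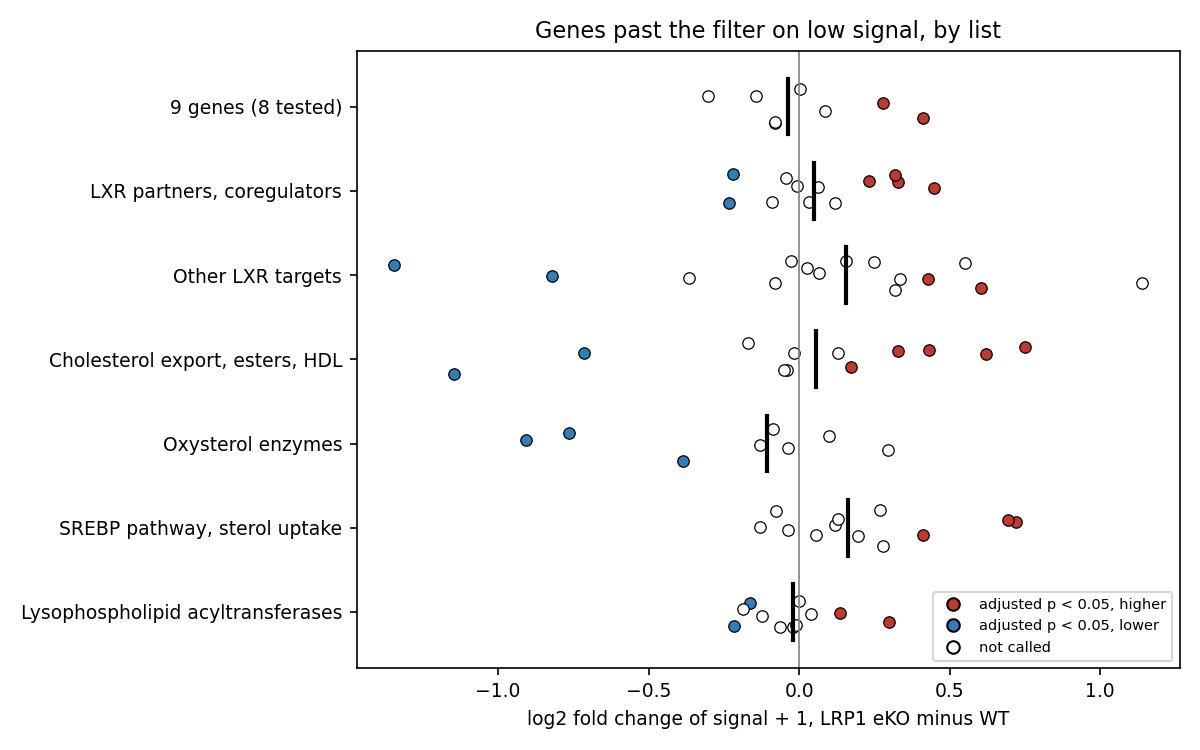
Log2 fold change of signal + 1 (x axis, LRP1 eKO minus WT) of each gene past the filter on low signal, in 7 lists, with red for genes called higher, blue for genes called lower, open points for genes not called, and a black bar at the list's median. The 8 tested genes of the LXR and efflux set lie between -0.30 and 0.41, and the other LXR targets between -1.35 and 1.14.

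By the root mean square difference of log2(signal + 1), each gene centred on its mean over the 8 libraries, the genes most like Abca1 were Casp8ap2, which encodes a caspase-associated nuclear protein, and Igf2r, the receptor that sorts lysosomal enzymes, with differences of 0.036 and 0.037. The genes most like Pltp were Sumf1, which encodes the activator of sulfatases, and Necap2, an endocytic adaptor gene, with differences of 0.047 and 0.053. The mean of Casp8ap2 was 2.39 in WT libraries and 3.09 in LRP1 eKO libraries, and that of Sumf1 was 19.7 and 26.1.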

How the data were processed

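Liver EC mRNA-seq libraries, 4 from WT and 4 from LRP1 eKO mice, were assigned to genotype and replicate number by their labels. The deposited values are signals that the authors quantile-normalized, for 22520 protein-coding genes, and their unit before that step is not stated. The submitters' processing notes name TopHat2, Cufflinks and mm10, while the study's methods name trimGalore, STAR, featureCounts, a GENCODE model and edgeR. Neither describes the table, the strand used in counting or its depth, so that no counting error was computed. Quantile normalization removes any shift shared by most genes. In a library, 6186 to 6621 genes were listed at 0.

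From the deposited signal, log2(signal + 1) was compared between the genotypes with limma (version 3.58.1, R 4.3.3), with a mean-variance trend and no other term, and p was adjusted by Benjamini-Hochberg over genes that reached a signal of 1 in 4 or more libraries. A gene was called at an adjusted p under 0.05. Exact two-sided permutation tests compared mean log2(signal + 1) for single genes. The calculation was tested on simulated data. Positions and exons were those of GENCODE M21 (GRCm38), which holds 21740 of the 22520 identifiers, and promoter windows from RefSeq (GRCm38.p6). Python 3.11.15 with matplotlib 3.10.9 drew the figures.

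The 9 genes and all lists were chosen with earlier results of these data known. Named were Lrp1, the 9 genes, and of each context list up to 3 tested genes with the smallest adjusted p and up to 3 with the highest mean, the RXR, receptor and apolipoprotein partners of the 9, and for each called gene the 2 genes most like it. The other called genes of a list, Fasn, Cd5l, Ch25h, Insig1, genes sharing exons, and the markers given by name were chosen after their values were seen, and not every gene that the rule covers is named. Results of some list genes are not reported here. Macrophage genes were matched by identifier where the table uses an older symbol, and the skeletal muscle marker Acta1 was not analysed here.

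Same-numbered libraries of the 2 genotypes did not deviate together over the genes tested (correlations of -0.086, -0.13, 0.18 and 0.038), so that the numbers were not used as pairs. As alternatives, the pseudocount was 0.1 or 5, the filter was dropped or set to a mean signal of 5, limma was run without a trend, with robust moderation or with library (array) weights, and each library was centred on its trimmed mean (30% off either end). Further alternatives were a replicate block, leaving out each library, leaving out WT replicate 4 and LRP1 eKO replicate 2 together, a 2-fold threshold, and a ratio of arithmetic means.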

Additional observations from a re-analysis of the deposited data

Results flagged for a closer look

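In groups of 4 libraries, the gap between the highest or lowest library and its nearest neighbour was divided by the whole range of the group and set against Dixon's 95% critical value. Over 62 groups examined, 3 passed, where chance gives about 3.1. In LRP1 eKO library 2, the Srebf2 signal of 38.5 was the highest of its group, with a ratio of 0.874, beside 31.9 to 32.7 in the other 3. In WT library 4, the Lcat signal of 2.53 was the highest, with a ratio of 0.883, beside 1.72 to 1.81. The mean log2(signal + 1) of the lysophospholipid acyltransferase list was lowest in WT library 2, with a ratio of 0.860. None of the 9 LXR and efflux genes passed this rule in either group.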

How the results depend on the processing

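Of 168 values of the 9 genes under the alternatives, 157 were counted as unchanged, 8 passed the threshold only under the alternative and 2 no longer passed it. The ratio of arithmetic means has no p-value, and 1 such value, that of Abcg1, moved by more than the spread between libraries. The other ratios are among the 157 and have no side of the threshold. Of the tested genes of the set, 0 were called higher at the 2-fold threshold. Called lower were 2, Scarb1 and Lpcat3, with library weights and 2, the same genes, without WT replicate 4 and LRP1 eKO replicate 2. Leaving out each library in turn gave 1 to 2 genes called higher and 0 to 1 called lower. With a replicate block, 2 were called higher and 0 lower, and no call among the 9 genes changed. The 2 that no longer passed were Abca1 without LRP1 eKO replicate 1 or 3. Abcg1 passed with library weights (log2 fold change 0.97), without LRP1 eKO replicate 2 (1.14) and without WT replicate 4 and LRP1 eKO replicate 2 (1.11), and the log2 ratio of its arithmetic means was 1.71. Pltp was called in every alternative except the 2-fold threshold. The causes were not tested.

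Among the context lists, the replicate block left 1 coregulator gene called lower, 1 acyltransferase gene called higher and 1 oxysterol gene called higher, and without WT replicate 4 and LRP1 eKO replicate 2 the other LXR targets had 4 genes called higher. Over all genes, between 1670 and 2644 were called higher and between 2024 and 3076 lower across the alternatives at the adjusted p alone. The depth of the libraries is unknown, and the 4 libraries a group limit the precision.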

Other observations

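The marker lists describe RNA of several cell types in the libraries in which the LXR and efflux genes were measured, and do not give cell numbers. Of the 10 pan-endothelial markers, 7 passed the filter and 3 were called higher, Cdh5, Eng and Esam, with a median log2 fold change of 0.36, and the Cdh5 call was lost without LRP1 eKO replicate 1 or replicate 3 (highest limma adjusted p = 0.057). Of the 8 sinusoidal endothelial markers, 4 passed, 1 was called higher, Oit3, and the summed signal was 7.84 to 11.7 in WT and 8.38 to 33.0 in LRP1 eKO libraries, where the lowest was LRP1 eKO library 2. Oit3 passed the filter only through its LRP1 eKO libraries, where it was high, and its call is given with that limit. It stayed past the filter in only 4 of the fits that left out 1 library. Of the 14 macrophage markers, 9 passed, 1 was called higher, Csf1r, and 1 lower, Cd14, with a median of 1.05, and the Csf1r call was lost without any 1 library other than LRP1 eKO replicate 2 (highest limma adjusted p = 0.079). Beside these marker counts, 19.0% of all genes tested were called higher and 22.2% lower.

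Of the 10 stellate cell and fibroblast markers, 7 passed the filter, of which Acta2 was called higher and Dcn and Lum were called lower, with a median of 0.038. Dcn fell from 563 ± 12.5 to 457 ± 20.0 (SD, n = 4 each, limma adjusted p = 0.00054). All 4 hepatocyte markers and all 4 skeletal muscle markers that passed were called lower, beside 22.2% of all genes tested, with medians of -1.67 and -1.89. The muscle marker Atp2a1 passed the filter only through its WT libraries, where it was high, and stayed past it in only 4 of the fits that left out 1 library. Of all genes tested, 17.5% had the order 2, 4, 3, 1 or 2, 4, 1, 3 in the LRP1 eKO libraries from high to low. With 1 and 3 in either order, this is the reverse of the order of the summed macrophage, endothelial and hepatocyte markers. These values are given as measured.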
